A study of Homo sapiens with 17 samples.

Results

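The Eph receptors and ephrins described here are 10 of the 26457 genes in an mRNA-seq table of SW480 cells, a human colon cancer line that expresses a mutant p53 (mutp53). They were chosen by gene symbol as all EPHB receptors (EPHB1, EPHB2, EPHB3, EPHB4 and EPHB6) and all B-class ephrins (EFNB1, EFNB2 and EFNB3), together with the A-class receptor EPHA2 and its ligand EFNA1. Earlier results of the same libraries were known when these genes were selected, so the differences between control and mutp53-depleted cells are given as a description. The same holds for the difference between their TNF-α responses (the interaction), which is built from the same values. For these comparisons p-values serve for calls and counts and are not given for single genes. The control line stably carried an shRNA to LacZ and the mutp53-depleted line (below also the depleted line) one to p53. Both were grown with puromycin, and the shRNA was induced in both with doxycycline at 1 µg/ml. RNA was taken with no TNF-α (0 h) or 16 h into treatment with TNF-α (12.5 ng/ml), with 2 biological replicates, A and B, in each of the 4 groups. GEO lists 1 sample per group, and its 2 columns in the table were taken as these replicates. Each hairpin sits in a line of its own, and whether a line is a single clone is not given in the sources used here, so the effect of the hairpin and other differences between the lines cannot be told apart.

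Eph receptors are receptor tyrosine kinases that bind ephrins displayed on neighbouring cells, and the contact can signal into the cell with the receptor and into the cell with the ephrin. A-class ephrins are held at the membrane by a lipid anchor, whereas B-class ephrins cross it and carry a cytoplasmic tail for SH2 and PDZ domain proteins. In the crypts of the intestine, EPHB2 and EPHB3 are Wnt target genes of proliferating cells, and B-class ephrins on differentiating cells help to hold these compartments apart. EPHB levels are often reduced as colorectal tumours progress.

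Levels are given as normalized reads, which are the reads on the exons of a gene after the deposited scaling of all 8 libraries to the same total. The libraries held 6108488 to 13809578 reads on genes, and 1 read equals 0.67 to 1.515 normalized reads. Differences are log2 fold changes of normalized reads + 1 from limma, fitted on 14800 genes whose mean over the libraries reached 2.5. A call needed an adjusted p (Benjamini-Hochberg) under 0.05 and at least a 2-fold change, and the interaction was called at the adjusted p alone. Of the 10 genes, 9 passed the filter and EPHB1 did not. In these bulk samples, fewer cells that express a gene and less RNA per cell cannot be told apart.

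Of 11 textbook NF-κB targets used to check the TNF-α label, 11 were called higher at 16 h in the control line. In the depleted line 10 were (NFKBIA, TNFAIP3, CXCL8, CXCL1, CXCL2, ICAM1, BIRC3, TNFAIP2, RELB and NFKB2), whereas CCL20 did not reach the threshold there (adjusted p = 0.11, limma). Of all genes tested, 2.97% were called higher with TNF-α in the control line and 1.86% in the depleted line.

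The colon epithelial label was checked against 12 marker genes, of which 7 passed the filter. The keratin gene KRT8 had the highest mean over the 8 libraries, with KRT18 close to it in control cells at 0 h, and the summed level of the list was 70711 and 66181 normalized reads in the control line at 0 h, 56298 and 56382 at 16 h, 52483 and 52462 in the depleted line at 0 h, and 42732 and 43897 at 16 h. KRT20, CDH17, GPA33 and LGALS4, which mark differentiated colon cells, had at most 8.64 normalized reads in a library, and CDX1 was at 0 in all 8. EPCAM and VIL1, genes of an adhesion protein and of a microvillus protein, were called lower in mutp53-depleted cells at both times, 2 of the 7 tested, where 9.55% and 10.2% of all genes were called lower. With TNF-α, CDH1, VIL1 and CDX2 were called lower in the control line and CDH1 and VIL1 in the depleted line. These were 3 and 2 of the 7 tested, where 4.27% and 4.5% of all genes were called lower. Of 10 markers each for endothelial, fibroblast and immune cells, 3, 2 and 3 passed the filter, and 2 endothelial (KDR and TEK), 3 stromal (COL3A1, DCN and POSTN) and 4 immune genes (PTPRC, CD3D, MS4A1 and NKG7) were at 0 in all 8 libraries. By the mean over all 8 libraries, the most abundant were ROBO4 for endothelial, COL1A1 for stromal and CD14 for immune cells, although ESAM was above ROBO4 at 0 h and ITGAM above CD14 at 16 h in both lines. The endothelial sums were 40.65 and 27.3 normalized reads in the control line at 0 h, 119 and 145 at 16 h, 79.8 and 78.2 in the depleted line at 0 h, and 335 and 301 at 16 h. ROBO4 carried the rise of these sums with TNF-α, and the median log2 fold change of the 3 tested genes was −0.87 and −0.22. The stromal sums were 39.2 and 39.4, 32.9 and 29.9, 163 and 179.6, and 57.0 and 65.4 in the same order, and the immune sums lay between 22.8 and 41.9 in all 8 libraries. Called higher in mutp53-depleted cells at 0 h were 2 of 3 endothelial, 2 of 2 stromal and 1 of 3 immune genes tested. At 16 h these counts were 3, 0 and 0, and no gene of these lists was called lower between the lines. Of all genes tested, 5.89% were called higher at 0 h and 5.03% at 16 h. Whether these shifts have a part in the levels of the Eph genes was not tested.

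mutp53-depleted cells had less mRNA of several Eph genes, and no member was called higher. At 0 h, EPHB6, EPHB2 and EFNB3 were called lower, 3 of the 9 members tested, where 9.55% of all genes tested were called lower. None of the 9 was called higher by limma, edgeR or DESeq2, where limma called 5.89% of all genes higher. In that direction 1 member (EFNB2) had an adjusted p under 0.05 with each of these tools, but its change was under 2-fold. At 16 h, EFNA1 was called lower as well, which made 4 of 9 against 10.2% of all genes, and again none was called higher by limma, edgeR or DESeq2 against 5.03% of all genes with limma. EFNB2, 1 of the 9, had an unadjusted p under 0.05 in that direction with limma, and no member had an adjusted p under 0.05 there. The median log2 fold change of the 9 members was −0.87 at 0 h and −0.84 at 16 h, and that of all genes tested was 0.03 and −0.01. Both comparisons rest on different libraries but on the same pair of lines, and since the genes were selected with results known, nothing is read from these counts.

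**Figure D1:**
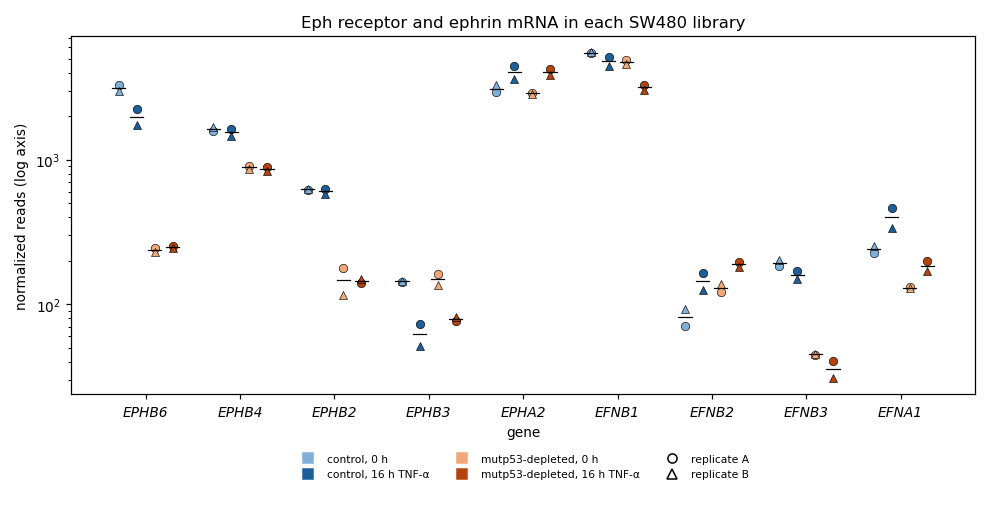
Normalized reads (log axis) of 9 Eph receptor and ephrin genes in the 8 libraries; circles are replicate A, triangles replicate B, and bars the mean of 2 replicates. EPHB6, EPHB4, EPHB2, EFNB3, EFNA1 and EFNB1 lie lower in mutp53-depleted cells at both times, and EFNB2 higher. EPHB1, with at most 1 read in a library, is left out.

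**Figure D2:**
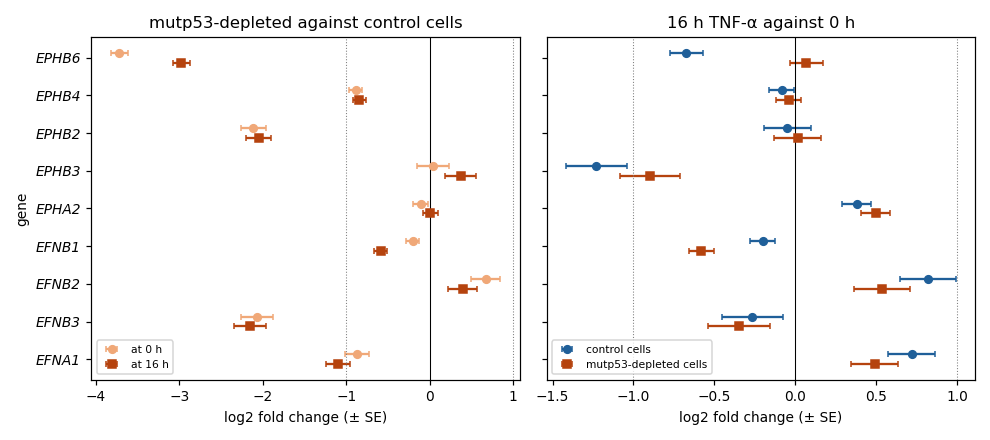
Log2 fold changes with standard errors from limma for the same 9 genes, on the left between mutp53-depleted and control cells at 0 h (circles) and 16 h (squares), on the right between 16 h and 0 h of TNF-α in control (circles) and mutp53-depleted cells (squares). Dotted lines mark a 2-fold change, which EPHB6, EPHB2 and EFNB3 pass at both times on the left, EFNA1 at 16 h, and EPHB3 in control cells on the right.

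Among the receptors, EPHB6 differed most between the lines. EPHB6 is a member of the family whose kinase domain lacks catalytic activity, and lies on chromosome 7 (hg19 chr7:142552776-142568847). It had 3285 and 2997 normalized reads in the control line at 0 h, 2245 and 1724 in control cells at 16 h, 245 and 230.35 in the depleted line at 0 h, and 254 and 244 at 16 h. All 4 control libraries were far above the 4 libraries of mutp53-depleted cells. The mean of control cells was 13.2 times that of the depleted line at 0 h and 7.96 times at 16 h, with log2 fold changes of −3.72 ± 0.10 (SE) and −2.98 ± 0.10. At 0 h, 50 of the 14800 genes tested had a lower log2 fold change than EPHB6, and at 16 h 119 did.

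The smaller difference at 16 h went with a TNF-α response in control cells. The level of EPHB6 fell in control cells, by 0.67 ± 0.10 on the log2 scale (adjusted p = 5.8e-05, limma), which was under 2-fold, and it was 0.07 ± 0.10 higher in mutp53-depleted cells (adjusted p = 0.68), where the replicates at 0 h and 16 h overlapped. The responses differed by 0.74 ± 0.14, and the difference was called. Without replicate A of control cells at 0 h it was 0.67 and no longer called. EPHB6 was the member called in the interaction, 1 of 9 against 0.655% of all genes called in that direction, and none was called in the other direction by limma, edgeR or DESeq2, where limma called 2.21% of all genes. EFNB1 was the 1 member with an unadjusted p under 0.05 in that direction.

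RefSeq starts of EPHB6 and of the other genes called at 16 h were compared by sequence, because these genes are lower together in mutp53-depleted cells. Windows were matched by symbol and not by transcript. Whether each lies at the start of the gene model counted here was not checked, so the EPHB6 window may belong to another start. RefSeq promoters of 300 bases on GRCh38.p14 matched 9 of the 10 genes by symbol, with EFNB3 missing, and EPHB2 had 2 starts 1 base apart, of which the first is shown. Capitals mark GC boxes (GGGCGG) and CCAAT boxes on either strand.
EPHB6 promoter, chr7:142862506-142862805, plus strand: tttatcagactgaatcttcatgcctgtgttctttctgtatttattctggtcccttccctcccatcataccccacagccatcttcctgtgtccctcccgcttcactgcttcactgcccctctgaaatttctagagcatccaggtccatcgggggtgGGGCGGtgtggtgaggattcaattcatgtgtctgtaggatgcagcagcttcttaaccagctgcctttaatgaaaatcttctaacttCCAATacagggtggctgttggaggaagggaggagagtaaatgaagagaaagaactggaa
EPHB2 promoter, chr1:22710588-22710887, plus strand: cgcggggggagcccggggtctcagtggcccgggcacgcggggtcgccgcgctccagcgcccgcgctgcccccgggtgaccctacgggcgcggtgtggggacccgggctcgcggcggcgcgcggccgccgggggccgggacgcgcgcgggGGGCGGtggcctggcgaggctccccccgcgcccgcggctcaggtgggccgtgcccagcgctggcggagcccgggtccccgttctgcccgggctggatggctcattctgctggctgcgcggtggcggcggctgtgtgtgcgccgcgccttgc
EFNA1 promoter, chr1:155127626-155127925, plus strand: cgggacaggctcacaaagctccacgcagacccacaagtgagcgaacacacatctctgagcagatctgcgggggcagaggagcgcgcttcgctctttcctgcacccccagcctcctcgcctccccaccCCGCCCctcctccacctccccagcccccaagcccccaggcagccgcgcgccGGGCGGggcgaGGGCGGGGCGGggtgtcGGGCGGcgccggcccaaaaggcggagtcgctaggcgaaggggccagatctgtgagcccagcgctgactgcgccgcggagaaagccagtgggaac
The EPHB6 sequence had the lowest GC content of the 9 genes, 48%, with 1 GC box and 1 CCAAT box, whereas EPHB2 had 83% GC, the highest, with 1 GC box. EFNA1 had 71.7% GC and 5 GC boxes, 2 of which overlap in a single run of capitals. Of 35116 RefSeq promoters of this length, 45% held a GC box and 34.6% a CCAAT box. In none of the 9 genes did the window hold the TCF/LEF letters CTTTGAT, with T or A at the end (6.86% of all promoters), the NF-κB letters GGGNNTTTCC (1.91%), or the AP-1 letters TGANTCA (7.71%), on either strand. The motifs were chosen after the values of the genes were seen, and a match is a string of letters that was not tested as a binding site.

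EPHB6 and EPHB4 lie on chromosome 7, and their neighbours were shifted too. Among the 50 nearest tested genes of EPHB6, 44 had a log2 fold change under 0 at 0 h, 7 were called lower (9.55% of all genes tested were), and the median was −0.49 at 0 h and −0.54 at 16 h, beside 0.03 and −0.01 for all genes. The nearest tested genes were TAS2R5 (1.17 at 0 h, not called) and SSBP1 (−0.29) on one side and GSTK1 (−1.52) and TMEM139 (−1.58) on the other. None of the 50 neighbours was as low as EPHB6 at either time. The neighbour with the lowest value at 0 h was EPHA1, another Eph receptor, at −2.07. Taking the neighbours' median away left log2 differences of −3.23 at 0 h and −2.43 at 16 h for EPHB6.

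EPHB4, a receptor for EFNB2 known from blood vessel development, differed less. It had 1579 and 1694 normalized reads in the control line at 0 h, 1636 and 1458 at 16 h, 910.02 and 861 in the depleted line at 0 h, and 885 and 837 at 16 h. The lines did not overlap at either time, and within each line 0 h and 16 h overlapped. The log2 fold changes between the lines, −0.88 ± 0.08 at 0 h and −0.84 ± 0.08 at 16 h, were under 2-fold. EPHB4 lies at hg19 chr7:100400187-100425143, between POP7 (−0.12 at 0 h) and GIGYF1 (−0.77) on one side and SLC12A9 (−1.15) and TRIP6 (−0.49) on the other. Its 50 neighbours had medians of −0.43 and −0.56, 8 were called lower at 0 h and 14 at 16 h (9.55% and 10.2% of all genes were), and 11 had a lower value than EPHB4 at 0 h and 17 at 16 h. Without the neighbours' median, −0.45 was left at 0 h and −0.28 at 16 h. EPHB4 thus lay within the range of its neighbours, and EPHB6 below that of its own.

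**Figure D3:**
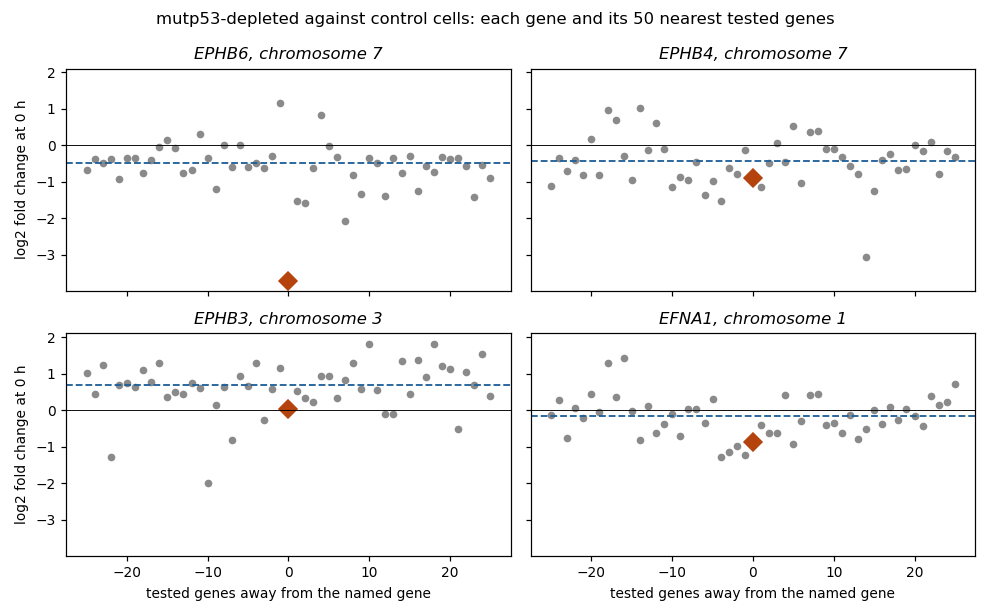
Log2 fold changes between mutp53-depleted and control cells at 0 h for EPHB6, EPHB4, EPHB3 and EFNA1 (diamonds) and the 50 tested genes nearest to each (points), by the number of tested genes away; dashed lines are the neighbours' medians. EPHB6 lies below all of its neighbours and EPHB4 among them, the neighbours of EPHB3 lie mostly above 0, and the low points before EFNA1 include EFNA3, EFNA4 and ADAM15.

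EPHB2, the receptor that marks the lower crypt, fell to a low level in mutp53-depleted cells. It had 619 and 630.2 normalized reads in the control line at 0 h, 628 and 580.45 at 16 h, 179 and 115 in the depleted line at 0 h, and 141 and 149 at 16 h. The control libraries stayed within a narrow range, the libraries of mutp53-depleted cells did not reach it, and 0 h and 16 h overlapped in both lines. The log2 fold changes between the lines were −2.11 ± 0.15 and −2.05 ± 0.15, and those with TNF-α were −0.05 ± 0.15 (adjusted p = 0.85) in control and 0.01 ± 0.15 (adjusted p = 0.96) in mutp53-depleted cells. The 50 neighbours of EPHB2 on chromosome 1 had medians of −0.04 at 0 h and 0.02 at 16 h.

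EPHB3, the other crypt receptor, changed with TNF-α. It had 143 and 145 normalized reads in the control line at 0 h and 72.5 and 51.2 at 16 h, against 162 and 136 in the depleted line at 0 h and 77.1 and 81.45 at 16 h. The libraries at 16 h were below those at 0 h in both lines, and at 0 h the lines overlapped. In control cells the fall of 1.23 ± 0.19 on the log2 scale (adjusted p = 6.1e-05) was the one call among the 9 members, against 4.27% of all genes called lower with TNF-α. No member was called higher there by limma, edgeR or DESeq2, against 2.97% of all genes with limma. In that direction 3 members (EFNA1, EFNB2 and EPHA2) had an adjusted p under 0.05 with limma, but under a 2-fold change. In mutp53-depleted cells EPHB3 fell by 0.90 ± 0.19 (adjusted p = 0.0014), under 2-fold. No member was called in either direction there by limma, edgeR or DESeq2, while 1.86% of all genes were called higher and 4.5% lower with limma. An adjusted p under 0.05 with limma was found for 3 members higher and 2 lower, all under 2-fold. The 2 responses of EPHB3 differed by 0.33 ± 0.26, which was not called.

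These TNF-α calls rest on single libraries. Without replicate B of control cells at 16 h, the change of EPHB3 in control cells was −0.98 (adjusted p = 0.0018, in a range of 1.9e-05 to 0.0019 over the alternatives) and no longer 2-fold. Without replicate B of the depleted line at 0 h, the change in those cells was −1.02 (adjusted p = 0.0055, in a range of 0.00028 to 0.038) and was called. The level of EPHB3 between the lines was 0.04 ± 0.19 higher on the log2 scale at 0 h and 0.37 ± 0.19 at 16 h in mutp53-depleted cells. Its 50 neighbours on chromosome 3 were higher there, with medians of 0.68 and 0.66. Relative to these, EPHB3 was 0.64 lower, a value of −0.64 at 0 h, and −0.29 at 16 h.

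EPHB1 was hardly detected. It had 1 read in replicate A of the depleted line at 0 h (0.67 normalized reads), 1 read in replicate B at 16 h (1.23), and 0 in the other 6 libraries. A count of 0 allows up to 3 reads, or 2.01 to 4.54 normalized reads depending on the library, for counting error only, so no comparison of EPHB1 was detectable at this depth.

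EPHA2, a receptor often raised in carcinomas, was higher with TNF-α in both lines. It had 2934 and 3269 normalized reads in the control line at 0 h and 4480 and 3625 at 16 h, and 2884 and 2863 in the depleted line at 0 h and 4251 and 3871 at 16 h. All libraries at 16 h were above those at 0 h. The log2 changes of 0.38 ± 0.09 (adjusted p = 0.0034) and 0.50 ± 0.09 (adjusted p = 0.00033) were under 2-fold and differed by 0.12 ± 0.12. Without replicate A at 16 h the change in control cells was 0.23 (adjusted p = 0.065), in a range of 0.00021 to 0.065 over the alternatives, and in mutp53-depleted cells the range was 4.7e-07 to 0.008. Between the lines, EPHA2 changed by −0.11 ± 0.09 at 0 h and 0.01 ± 0.09 at 16 h.

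Among the ligands, EFNB1 was the B-class ephrin with the highest level per length. It had 5455 and 5516 normalized reads in the control line at 0 h, 5119 and 4446 at 16 h, 4932 and 4591 in the depleted line at 0 h, and 3312 and 3056 at 16 h. The lowest libraries were those of mutp53-depleted cells with TNF-α, which lay apart from all others. EFNB1 fell with TNF-α by 0.58 ± 0.08 in mutp53-depleted cells (adjusted p = 1.5e-05), and its change in control cells was −0.20 ± 0.08 (adjusted p = 0.061, in a range of 0.01 to 0.41 over the alternatives). The latter was −0.30 without replicate A at 16 h (adjusted p = 0.01) and −0.10 without replicate B (adjusted p = 0.41). The difference between these responses, −0.38 ± 0.11, was not called, but without replicate B of control cells at 16 h (−0.48) it was. Between the lines EFNB1 differed by −0.21 ± 0.08 at 0 h and −0.58 ± 0.08 at 16 h, both under 2-fold.

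EFNB2, the ligand of EPHB4 in arteries, lay higher in mutp53-depleted cells but was not called at either time. It had 70.4 and 92.4 normalized reads in the control line at 0 h, 163 and 125 at 16 h, 122 and 137 in the depleted line at 0 h, and 195 and 181 at 16 h. At each time the mutp53-depleted libraries were above the control libraries, and in each line 16 h was above 0 h. The TNF-α changes were 0.82 ± 0.17 in control (adjusted p = 0.0016) and 0.54 ± 0.17 in mutp53-depleted cells (adjusted p = 0.027), both under 2-fold, and they differed by −0.28 ± 0.25. In control cells the change reached 2-fold without replicate B at 0 h (1.01, adjusted p = 0.0018) or at 16 h (1.01, adjusted p = 0.0017), in a range of 0.00025 to 0.036. In mutp53-depleted cells it was 0.45 without replicate A at 0 h (adjusted p = 0.18), in a range of 0.0033 to 0.18. The differences between the lines were 0.67 ± 0.17 at 0 h and 0.39 ± 0.17 at 16 h, and the latter was 0.20 without replicate B of control cells at 16 h.

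EFNB3, a B-class ephrin best known from the nervous system, was lower in mutp53-depleted cells. It had 184 and 201 normalized reads in the control line at 0 h, 171 and 149 at 16 h, 44.9 and 45.25 in the depleted line at 0 h, and 40.2 and 30.85 at 16 h. The lines were far apart at both times. The log2 fold changes between them were −2.07 ± 0.19 and −2.15 ± 0.19, and with TNF-α the values were −0.27 ± 0.19 (adjusted p = 0.34) and −0.35 ± 0.19 (adjusted p = 0.20). EFNB3 lies on chromosome 17 (hg19 chr17:7608520-7614693). The tested genes after it, DNAH2 and KDM6B, changed by −0.24 and 0.40 at 0 h, and its 50 neighbours had medians of −0.06 and −0.11. DNAH2 and KDM6B were chosen after their values were seen.

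EFNA1, a ligand of EPHA2 that was first described as a TNF-α-induced gene of endothelial cells, differed both between the lines and with TNF-α. It had 226 and 253 normalized reads in the control line at 0 h, 462 and 337 at 16 h, 132 and 129 in the depleted line at 0 h, and 199.5 and 169 at 16 h. In each line both libraries at 16 h were above those at 0 h, and at each time both mutp53-depleted libraries were below those of control cells. EFNA1 rose with TNF-α by 0.72 ± 0.14 in control cells (adjusted p = 0.001) and by 0.49 ± 0.14 in mutp53-depleted cells (adjusted p = 0.017), both under 2-fold, with a difference of −0.23 ± 0.21. Without replicate A of mutp53-depleted cells at 16 h the latter rise was 0.37 (adjusted p = 0.15), in a range of 0.0054 to 0.15, and the range in control cells was 4.4e-05 to 0.034. The difference between the lines was −0.87 ± 0.14 at 0 h and −1.10 ± 0.14 at 16 h. The value at 16 h was no longer 2-fold without replicate A of control cells (−0.87) or replicate B of mutp53-depleted cells at 16 h (−0.98), or without the neighbours' median (−0.86).

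EFNA1 is one of a row of ephrin genes on chromosome 1 (hg19 chr1:155100349-155107386). The tested genes before it were EFNA3, EFNA4 and ADAM15, the gene of a membrane metalloprotease, 40335, 58320 and 65097 bases away. EFNA3 was lower in mutp53-depleted cells by log2 fold changes of −1.24 and −1.54 at 0 h and 16 h, EFNA4 by −0.98 and −1.37, and ADAM15 by −1.14 and −1.06. The TNF-α changes in control cells went the other way from EFNA1, −1.21 for EFNA3 (adjusted p = 0.0076) and −0.92 for EFNA4 (adjusted p = 0.00074), and ADAM15 had 0.10 (adjusted p = 0.46). After EFNA1 came SLC50A1 (−0.39 at 0 h and −0.16 at 16 h) and DPM3 (−0.62 and −1.10, called lower at 16 h). The 50 neighbours had medians of −0.15 and −0.24. Of these, 3 were called lower at 0 h and 7 at 16 h (9.55% and 10.2% of all genes were). SLC50A1 and DPM3 were chosen after their values were seen.

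Levels were compared between genes as normalized reads per kilobase of the gene model. In control cells at 0 h, EFNB1 was highest with 1651 ± 13.1 (SD, n = 2), followed by EPHB6 with 791 ± 51.4 and EPHA2 with 786 ± 60.1, whose replicates overlapped. EPHB4 came next with 378 ± 18.7, then EFNA1 with 154 ± 12.1, EFNB3 with 59.9 ± 3.94 and EPHB2 with 56.7 ± 0.717, of which EFNB3 and EPHB2 overlapped. EPHB3 with 34.3 ± 0.416 and EFNB2 with 18.6 ± 3.55 were the lowest of the genes tested. In the depleted line at 0 h the order was EFNB1, EPHA2, EPHB4, EFNA1, EPHB6, EPHB3, EFNB2, EFNB3 and EPHB2, in which EPHB6 stood at 59.9 ± 2.65 and EPHB2 at 13.3 ± 4.09, and EFNB3 and EPHB2 again overlapped. With TNF-α, EPHA2 (1029.5 ± 68.1) and EFNB1 (958 ± 54.5) stood side by side at the top of mutp53-depleted cells with overlapping replicates, whereas in control cells at 16 h EFNB1 (1439 ± 143) was above EPHA2 (1027 ± 153).

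The makeup of the EPHB class differed between the lines. Summed over EPHB1 to EPHB6, the level per kilobase was 1259 ± 31.6 in control cells at 0 h, 926 ± 128 at 16 h, 313 ± 19.3 in the depleted line at 0 h and 294 ± 8.20 at 16 h. EPHB6 made up 62.7% ± 2.51 (SD, n = 2) of this sum in control cells at 0 h and 53.8% ± 2.56 at 16 h, but 19.1% ± 0.330 and 21.4% ± 0.00948 in mutp53-depleted cells. EPHB4 went from 30.0% ± 2.24 and 38.7% ± 2.23 to 65.3% ± 1.47 and 67.7% ± 0.812. The B-class ephrins kept 1 leading gene, EFNB1, with 94.6% to 97.0% of their sum in all 4 groups.

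**Figure D4:**
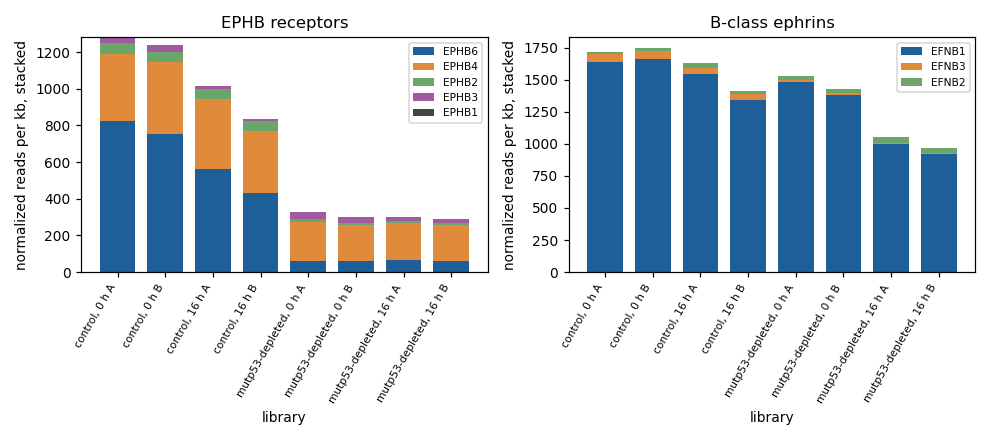
Normalized reads per kilobase in each library, stacked by gene, for the EPHB receptors (left) and the B-class ephrins (right). The EPHB sum is lower in all 4 libraries of mutp53-depleted cells, where EPHB4 in place of EPHB6 is the leading gene, and EFNB1 leads the ephrins in all 8 libraries.

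Of 8 other Eph receptors, 4 passed the filter, and of 4 other ephrins all did. EPHA1, on chromosome 7 near EPHB6, had 183 and 176 normalized reads in the control line at 0 h, 69.6 and 89.6 at 16 h, 49.6 and 35.65 in the depleted line at 0 h, and 25.1 and 22.2 at 16 h. It was called lower in mutp53-depleted cells at both times (−2.07 ± 0.23 and −1.70 ± 0.23) and with TNF-α in control cells (−1.17 ± 0.23, adjusted p = 0.00068), and no group overlapped another. EFNA5 was called higher in mutp53-depleted cells at both times (1.38 ± 0.19 and 1.28 ± 0.19), and EPHA8, at 1.51 to 22.6 normalized reads, at 0 h (1.54 ± 0.55). EFNA3 was called in each of the 4 comparisons and EFNA4 in mutp53-depleted cells with TNF-α (−1.31 ± 0.18, adjusted p = 2.3e-05) and between the lines at 16 h, all lower. EPHA4, EPHA10 and EFNA2 were not called, and EPHA3, EPHA5, EPHA6 and EPHA7 were at 0 in all 8 libraries.

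Genes that act with Eph receptors and ephrins were counted from 3 lists. Of 58 signalling partners, such as SRC family kinases, adaptors and exchange factors, 52 were tested. At 0 h, 4 were called higher and 2 lower in mutp53-depleted cells, at 16 h 4 and 3, and the median was 0.31 and 0.11. Of all genes tested, 5.89% were called higher and 9.55% lower at 0 h, and 5.03% and 10.2% at 16 h. GRIP2, a PDZ adaptor of B-class ephrins, had 303 and 273 normalized reads in the control line at 0 h and 29.5 and 24.7 in mutp53-depleted cells, a log2 fold change of −3.37 ± 0.20. GRB7, an adaptor, was lower at 16 h (−1.54 ± 0.13), and KALRN, an exchange factor, at 0 h (−1.43 ± 0.23) and with TNF-α in control cells (−1.14 ± 0.23, adjusted p = 0.00086). PTPN13, a phosphatase that binds B-class ephrins, was higher at both times (1.64 ± 0.39 and 2.10 ± 0.39), as was the kinase ABL2 (1.37 ± 0.10 and 1.73 ± 0.10). GRIP1, a paralog of GRIP2, was called higher at 0 h from at most 1.45 normalized reads in the control line to 8.71 and 4.11 in the depleted line. NGEF, the exchange factor ephexin, was called lower with TNF-α in mutp53-depleted cells (−1.52 ± 0.30, adjusted p = 0.00078).

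Proteases that cut Eph receptors or ephrins formed the second list, with 14 of 19 genes tested. Between the lines, 1 was called higher and 1 lower at 0 h and 1 and 2 at 16 h (all genes: 5.89% and 9.55%, then 5.03% and 10.2%), with medians of −0.29 and −0.36. MMP2 was higher in mutp53-depleted cells at both times (1.88 ± 0.36 and 2.57 ± 0.36), and ADAM15 lower. MMP2 also fell with TNF-α in control cells, by 1.29 ± 0.36 (adjusted p = 0.012). MMP9 had 2.18 and 0 normalized reads in the control line at 0 h and 568 and 370 at 16 h, and 0.67 and 0 in the depleted line at 0 h and 172 and 158 at 16 h. It was called higher with TNF-α in both lines and lower in mutp53-depleted cells at 16 h (−1.47 ± 0.46). MMP14, which cuts EPHA2 at the cell surface, rose with TNF-α by 0.86 ± 0.09 in control (adjusted p = 1.2e-06) and 1.18 ± 0.09 in mutp53-depleted cells (adjusted p = 2.6e-08).

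The third list held 20 Wnt target genes of the crypt, of which 17 were tested. In mutp53-depleted cells, 1 was called higher and 5 lower at 0 h and 2 and 5 at 16 h, beside 5.89% and 9.55%, then 5.03% and 10.2%, of all genes, with medians of −0.44 and −0.39. NOTUM, which encodes a secreted Wnt inhibitor, was lower by −2.38 ± 0.21 and −3.59 ± 0.21, APCDD1, another inhibitor, by −1.73 ± 0.16 and −3.34 ± 0.16, and the transcription factor gene PROX1 by −2.32 ± 0.10 and −2.58 ± 0.10. DKK1, also an inhibitor of Wnt receptors, was higher at both times (1.30 ± 0.17 and 1.08 ± 0.17), and LEF1 at 16 h (1.03 ± 0.08). The same 20 genes with TNF-α had 1 call higher and 3 lower in the control line and 2 and 5 in the depleted line (all genes: 2.97% and 4.27%, then 1.86% and 4.5%), with medians of −0.64 and −0.41, against −0.05 and −0.06 for all genes tested. There, DKK1 rose by 2.26 ± 0.17 (adjusted p = 7.2e-09) in control cells and 2.04 ± 0.17 (adjusted p = 3.9e-08) in mutp53-depleted cells, CD44 by 1.10 ± 0.07 (adjusted p = 2.3e-09) in mutp53-depleted cells, and ASCL2, a stem cell factor, fell by 1.48 ± 0.12 (adjusted p = 3.8e-08) and 2.09 ± 0.12 (adjusted p = 6.7e-10).

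The genes most like EPHB2 and EFNA1 over the 8 libraries were found by Pearson's r of log2(normalized reads + 1) among 13123 other genes with a mean of at least 10. For EPHB2 they were HYI (r = 0.998), TMEM8A (0.996), ZNF579 (0.996), ACP2 (0.995) and ZBTB45 (0.995), on 4 chromosomes. For EFNA1 the 4 named are SEMA4C (0.995), HLA-C (0.991), NEURL2 (0.991) and POLRMT (0.991). SEMA4C had log2 fold changes of −0.62 and −0.97 between the lines and 0.70 and 0.34 with TNF-α in control and mutp53-depleted cells. The 8 libraries form 4 groups, so these values describe the shared group pattern, and no test is given.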

How the data were processed

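mRNA-seq libraries of SW480 cells were analysed, 2 replicates in each of 4 groups. According to the study's methods, single-end reads of 50 bases were aligned with STAR and counted per gene model, and the deposited table's header holds a HOMER command that counts reads on exons. The signal values deposited by the authors are these reads multiplied by 1 factor per library. The table names hg19, whereas the methods name hg38. Whole reads (within 0.05) were recovered for 100% of the values, and replicates varied more than sampling noise alone allows (chi-square of 2.07 to 3.93 per gene). The table's 12 columns of fold changes and p-values from the authors' own comparisons were not used. Gene lengths in the same table served for levels per kilobase. AFDN is listed there as MLLT4 and IL8 as CXCL8.

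Normalized reads were compared as log2(value + 1) with limma 3.58.1 (R 4.3.3; eBayes with trend after lmFit and contrasts.fit), in a model of the 4 group means, with Benjamini-Hochberg adjustment over 14800 genes. The procedure was tested on simulated data. The alternatives were pseudocounts of 0.1 and 5, no filter, a mean of at least 10, rescaling by the median ratio, the replicate letter as a term, the recovered reads in edgeR 4.0.16 (quasi-likelihood with TMM) and DESeq2 1.42.0, removal of the median of the 50 nearest tested genes, 20 and 100 neighbours, and leaving out each library. At 0 h, edgeR called 2336 genes, DESeq2 1955 and limma 2285 between the lines. Python 3.11.15 and pandas 2.3.3 served for tables and plots.

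The members and lists were chosen with earlier results of these data known. Named were all 10 members and other Eph receptors and ephrins called in any comparison. From each list up to 3 called genes per direction were named between lines and with TNF-α, mostly those with the largest log2 fold change. The label checks, the 2 nearest tested genes on each side of EPHB4 and EPHB6, and genes most like EPHB2 (5) and EFNA1 (4) were named as well. Neighbours of EFNB3 and EFNA1, the promoter motifs, the genes not called and the markers named are exceptions chosen after their values were seen.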

Additional observations from a re-analysis of the deposited data

Results flagged for a closer look

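The TNF-α response differed between control and mutp53-depleted cells for 14 genes of the lists given here, by limma's call of the interaction. Among those tested, these were 1 of 9 members, 3 of 52 signalling partners, 3 of 17 crypt Wnt targets and 7 of 11 NF-κB targets. Of all genes tested, 0.655% were called higher and 2.21% lower in the interaction. EPHB6 was the one member called, with a response 0.74 higher on the log2 scale in mutp53-depleted cells. It was not called without replicate A of control cells at 0 h (0.67).

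Of the signalling partners, GRB7 had a difference of −0.92, TIAM1, a Rac exchange factor, of −0.65 and SDCBP, the gene of the ephrin-binding protein syntenin, of −0.55. Of the crypt Wnt targets, APCDD1 had −1.61, NOTUM −1.21 and CD44 0.42. The NF-κB targets of the label check had differences of −2.84 for BIRC3, −2.66 for TNFAIP2, −1.94 for TNFAIP3 and −1.43 for NFKBIA. For NFKB2, RELB and ICAM1 they were −0.93, −0.89 and −0.80. The lines differed before TNF-α. Of the 11 targets, 4 were called higher and 0 lower in mutp53-depleted cells at 0 h (all genes: 5.89% and 9.55%). At 16 h the counts were 1 (BIRC3) and 3 (5.03% and 10.2%). Mean BIRC3 was 12.3 normalized reads in control and 182 in mutp53-depleted cells at 0 h, and 1270 and 2566 at 16 h.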

How the results depend on the processing

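Of 765 member values under alternative settings, 729 kept their direction and call, 5 became weaker, 5 stronger and 26 reversed. The calls of EPHB6, EPHB2 and EFNB3 between the lines held throughout. Called members ranged, without single libraries, from 1 to 2 for TNF-α in the control line, 0 to 1 in the depleted line and 0 to 2 for the interaction. The lone replicate left in a group is assumed to vary like the others. The whole-table interaction count of 424 went to 281 without replicate A of control cells at 0 h, to 233 and 229 without replicate A or B of mutp53-depleted cells at 0 h and to 265 without replicate B of mutp53-depleted cells at 16 h. The cause was not tested.

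The replicate letter is shared between groups but the sources describe no pairing (r of A minus B between groups of −0.042 to 0.117). With the replicate block, the interaction called 2 members, EPHB6 and EFNB1 (−0.38, as in the fit with no block).

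Reversed values were all of differences not called. With the neighbours' median removed they were −0.64 (EPHB3 between the lines at 0 h), −0.29 (EPHB3 at 16 h), and for TNF-α in mutp53-depleted cells −0.0427 (EPHB2) and 0.0892 (EPHB4). For the same comparison edgeR gave −0.0385 (EPHB2) and 0.0165 (EPHB4), DESeq2 −0.0017 (EPHB2) and 0.0237 (EPHB4), and median ratio scaling 0.0254 (EPHB4). The interaction of EPHB2 was −0.0352 with edgeR and −0.0017 with DESeq2, and EPHA2 between the lines at 16 h was −0.0087 with edgeR. Without single libraries, ranges that crossed 0 were −0.11 to 0.0086 (EPHB2) and −0.17 to 0.0002 (EPHB4) for TNF-α in the control line, −0.30 to 0.33 (EPHB2) and −0.0812 to 0.0002 (EPHB4) in mutp53-depleted cells, −0.0866 to 0.17 (EPHB3 between the lines at 0 h), −0.14 to 0.16 (EPHA2 at 16 h), and for the interaction −0.25 to 0.38 (EPHB2), −0.0407 to 0.12 (EPHB4), −0.27 to 0.11 (EFNB3) and −0.0349 to 0.27 (EPHA2).

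Neighbour medians at 0 h with 20 and 100 genes were −0.53 and −0.61 for EPHB6, −0.55 and −0.30 for EPHB4, 0.60 and 0.74 for EPHB3, 0.24 and 0.20 for EFNB1, −0.31 and −0.18 for EFNB2, 0.20 and −0.17 for EPHA2, −0.38 and −0.10 for EFNA1, and 0.12 with 20 for EPHB2. At 16 h they were −0.65 and −0.70 for EPHB6, −0.71 and −0.41 for EPHB4, −0.0425 and −0.11 for EPHB2, 0.14 and −0.0725 for EFNB3, −0.42 and −0.19 for EFNA1, and −0.0234 with 20 for EPHA2. Levels per kilobase in control cells at 0 h moved with median ratio scaling to 55.7 for EPHB2, 33.7 for EPHB3 and 1622 for EFNB1.

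The results rest on 2 replicates per group, 1 cell line and 1 line per hairpin. mRNA was measured, so protein, phosphorylation and ephrin binding were not tested, nor were copy number or chromatin at EPHB6 and EPHB4. EPHB1 lies below what this depth detects.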
